A study of Pomacea canaliculata with 12 samples.

Results

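Extracted retinas of the apple snail Pomacea canaliculata were set against eye stalks of the same species, gene by gene. The comparison used 6 of the 12 poly(A) RNA libraries of the series, retina replicates 1, 3 and 4 and eye stalk replicates 1, 2 and 3. The other 6 libraries, 3 of cephalic tentacle and 3 of oral tentacle, served to look up where the changed genes were otherwise expressed. They also entered the fit of all 12 libraries. They thus had a part in the low-count filter, the scaling and the estimate of spread behind the p-values. Of 21131 genes counted, 16811 had enough counts to be tested. The labels give the tissue only: they name no treatment, age, sex or strain, and do not say whether a library stands for 1 animal or a pool, or whether the eye was part of the amputated eye stalk. The p-values thus speak of spread among these libraries, part of which may be technical.

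A camera-type eye focuses light through a lens onto a retina, where photoreceptor cells turn light into electrical signals and pigmented cells screen stray light. In apple snails the eye sits at the tip of a short stalk beside the cephalic tentacle. A snail eye stalk holds skin, muscle, connective tissue and nerve, and the tentacles are built of the same kinds of tissue. Genes carry LOC identifiers only and no product description was available, so no gene is given a function and the tissue labels could not be checked against marker genes. In whole-tissue RNA, fewer cells of a type and less RNA per cell cannot be told apart.

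The retina libraries held 40794864 to 45673871 counts and the eye stalk libraries 11890390 to 12286896, so depth and tissue could not be told apart. Retina replicate 4 and eye stalk replicate 3 stood furthest from the others of their tissue. Among genes tested, 260 were more than 4-fold above both other retinas in retina replicate 4 (at 5 CPM or more, CPM being counts per 1000000 counts of the scaled library), against 16 in replicate 1 and 7 in replicate 3. In eye stalk replicate 3 there were 179 such genes, against 28 in replicate 1 and 36 in replicate 2. Results are given without these libraries where they moved.

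Retina and eye stalk differed in 9228 of the 16811 genes tested (54.9%), and the sizes of the differences were unlike in the 2 directions. In retina 4725 genes were higher (28.1% of those tested) and 4503 were lower (26.8%) by edgeR quasi-likelihood test at adjusted p under 0.05. That fit took in all 12 libraries. With the 6 retina and eye stalk libraries alone, 3485 genes were higher and 3970 were lower. A fitted difference of at least 2-fold was found for 2625 genes higher in retina (15.6%) and 3936 genes lower (23.4%). The higher genes were mostly shifted by a small amount: 2039 of the 2625 lay between 2-fold and 4-fold and 22 reached 32-fold (0.131% of genes tested). Of the 3936 lower genes, 831 lay between 2-fold and 4-fold and 900 reached 32-fold (5.35%). These are fitted sizes, and 306 of the lower genes had 0 counts in retina, against 5 of the higher genes in eye stalk. Fitted sizes of such genes depend on the prior count, and how many would reach 32-fold at their bound was not computed. The floor of 3 counts stood for 0.031 CPM in retina and 0.078 CPM in eye stalk. The median log2 fold change was 1.45 in the higher set and -3.38 in the lower set, against 0.04 over all genes tested. With genes at 0 counts set to their bound the lower median was -3.32. More genes were at least 2-fold lower than higher in every one of the 13 alternatives run. Retina and eye stalk libraries did not overlap in 2535 (96.6%) of the 2-fold higher and 3744 (95.1%) of the 2-fold lower genes. Over all genes tested, 30.9% had every retina library above every eye stalk library and 29.1% had every one below. Both sets were picked by adjusted p and by a 2-fold cut on these same libraries. That choice largely sets their lack of overlap and keeps their medians away from 0.

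**Figure D1:**
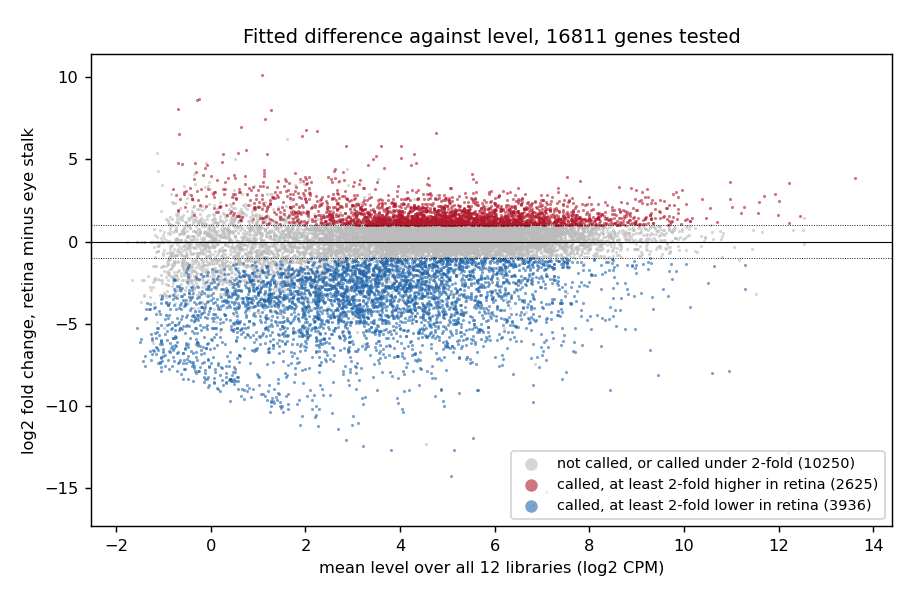
Each point is 1 of the 16811 genes tested, with its mean level over all 12 libraries (log2 CPM) on the horizontal axis and its fitted log2 fold change, retina minus eye stalk, on the vertical axis. Genes at least 2-fold higher in retina (red, 2625) stay mostly within a log2 change of 2, whereas those at least 2-fold lower (blue, 3936) reach beyond -10 and lie further to the left; dotted lines mark 2-fold, and fitted values of genes at 0 counts in a tissue depend on the prior count.

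The balance of directions changed with level. Genes were split into 5 equal groups by mean log2 CPM over all 12 libraries. In the highest group 22.9% of genes were at least 2-fold higher in retina and 13.6% at least 2-fold lower. In the lowest group the shares were 6.87% higher and 33.7% lower. Among genes called at least 2-fold different, abundant ones thus leaned toward the retina and scarce ones toward the eye stalk. Level and direction were not independent, since the mean level includes the retina and eye stalk libraries that set the direction. The retina libraries were also deeper. The parts of depth and of this shared use of libraries in the lean were not tested. Precision also differed. The median half-width of the 95% interval of the log2 fold change was 0.42 in the highest group and 2.06 in the lowest. Small differences of scarce genes could thus go undetected in these libraries.

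The changed genes filled very different parts of the libraries. The 2625 higher genes took 46.6 ± 3.75% of the counts in retina and 18.8 ± 2.17% in eye stalk (SD, n = 3 each). The 3936 lower genes took 2.37 ± 0.15% of the counts in retina and 20.3 ± 3.30% in eye stalk. These shares describe sets chosen on the same libraries. For look-up, the higher genes took 16.0 ± 0.44% in cephalic and 16.3 ± 0.77% in oral tentacle, and the lower genes 19.7 ± 1.57% and 19.0 ± 1.48%. In both sets the tentacle libraries lay close to the eye stalk and far from the retina. Eye stalk replicate 3 stood apart within its tissue, with 16.4% of counts in the higher genes (19.7% and 20.4% in replicates 1 and 2) and 24.1% in the lower genes (18.3% and 18.5%).

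**Figure D2:**
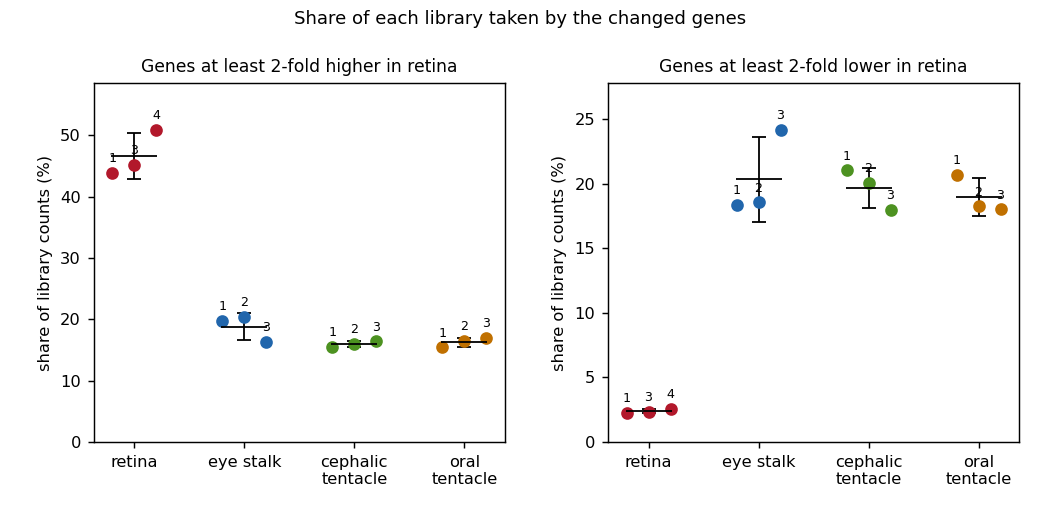
Share of each library's counts (%) taken by the genes at least 2-fold higher in retina (left) and at least 2-fold lower (right); points are libraries with their replicate number, bars the mean and SD of 3 libraries. The higher genes take 43.8% to 50.8% of the retina libraries, and the lower genes take 2.24% to 2.53% of them; eye stalk and tentacle libraries lie near each other in both panels.

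The tentacles showed what the contrast looked like from outside the eye. For each gene the tentacle mean was placed on a log2 scale (CPM plus a pseudocount of 0.5) on which the lower tissue is 0 and the higher tissue is 1. Of the 2625 genes higher in retina, 1417 (54.0%) had tentacle levels near the eye stalk, 491 (18.7%) had tentacle levels clearly below both tissues, 424 (16.2%) lay between, 240 (9.14%) had tentacle levels near the retina, and 53 (2.02%) lay above both. On the same scale the median of tentacle minus retina over the higher genes was -1.29, and the median of tentacle minus eye stalk was 0.12. Over all genes tested these medians were 0.05 and -0.00062. The largest class of the genes higher in retina was thus the one in which a tentacle and an eye stalk had like levels. With cephalic and oral tentacle placed separately, 1944 of 2625 genes (74.1%) had the same class by both.

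The 491 genes with tentacles below both tissues were graded from retina through eye stalk to tentacle by the rule that defines the class. Their median level was 143 CPM in retina, 44.7 CPM in eye stalk and 13.1 CPM in the tentacles. Their median in retina was above that of the 1417 genes with tentacles near the eye stalk, whose medians were 67.2, 24.7 and 25.3 CPM. The rule itself favours this contrast. Given the pseudocount of 0.5 CPM, a gene barely counted in eye stalk cannot have tentacles clearly below both tissues. How much of the contrast the rule sets was not tested. In the graded set the eye stalk libraries stood at a median of 31.2% (replicate 1), 36.3% (replicate 2) and 25.1% (replicate 3) of the mean level in retina. Replicate 3 was the lowest eye stalk library for 365 of the 491 genes (74.3%), against 42.0% of all genes tested. The part of that library in the size of this class was not tested.

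Of the 3936 genes lower in retina, 2378 (60.4%) had tentacle levels near the eye stalk and 711 (18.1%) had tentacle levels above both tissues. A further 596 (15.1%) lay between, 225 (5.72%) had tentacle levels near the retina, and 26 (0.66%) had tentacles below both. The median of tentacle minus retina over the lower genes was 2.29 in log2 units, and the median of tentacle minus eye stalk was -0.15. The largest class of the genes lower in retina thus had like levels in eye stalk and tentacles, and the 225 genes near the retina were those for which the eye stalk alone was high. Again 2935 genes (74.6%) had the same class by cephalic and by oral tentacle. Eye stalk replicate 3 was the highest eye stalk library for 1852 of the 3936 genes (47.1%), against 32.9% of all genes tested.

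**Figure D3:**
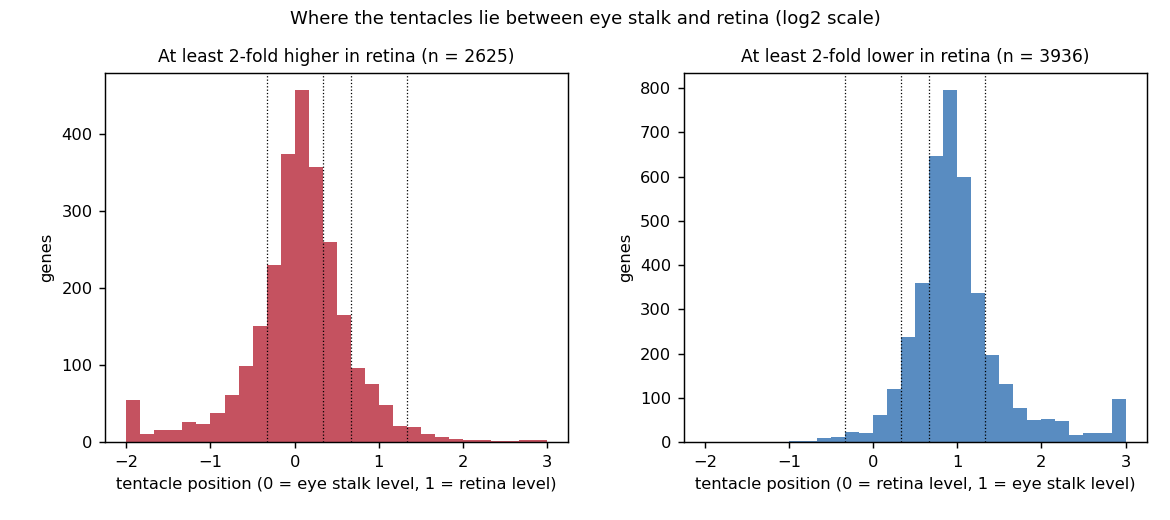
Number of genes by the position of the tentacle mean between eye stalk and retina on the log2 scale, for genes at least 2-fold higher (left, n = 2625) and lower (right, n = 3936) in retina; dotted lines bound the 5 classes and values beyond the axis are drawn in the end bins. On the left most genes gather around 0, the eye stalk level, with a tail to lower values; on the right they gather around 1, again the eye stalk level, with a tail to higher values.

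Among genes higher in retina whose libraries did not overlap between the tissues, the 4 most abundant were also plentiful in eye stalk and far lower in tentacles. Levels are in normalised CPM, in the order of replicate numbers, and are not corrected for gene length. LOC112555734 had 13765, 11870 and 15772 CPM in retina, against 2843, 3048 and 1530 in eye stalk, which is a log2 fold change of 2.48 with an SE of 0.29 (adjusted p by edgeR 8.2e-05); SEs follow the ± sign for other genes. It was looked up at 45.6 to 73.2 CPM in the tentacles. LOC112563139 had 10538, 11733 and 14599 CPM in retina, against 4705, 4419 and 2652 in eye stalk, and a log2 fold change of 1.65 ± 0.25 (edgeR adjusted p = 0.00035), and 3.85 to 5.81 CPM in the tentacles. For both genes the retinas were even and eye stalk replicate 3 was the lowest stalk.

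The 2 others of these 4 genes depended more on retina replicate 4. LOC112559381 had 9549, 10582 and 21149 CPM in retina, against 2119, 2470 and 1015 in eye stalk (log2 fold change 2.88 ± 0.75, edgeR adjusted p = 0.0076). It reached 0.04 to 11.5 CPM in the tentacles, and the call was lost with retina replicate 4 and eye stalk replicate 3 both left out (log2 fold change 2.13, adjusted p = 0.052). LOC112576458 had 3538, 7111 and 41782 CPM in retina, against 1864, 1369 and 1243 in eye stalk (log2 fold change 3.55 ± 0.79, edgeR adjusted p = 0.0034) and 1.46 to 4.16 in the tentacles. The log2 fold change came to 1.83 once retina replicate 4 was left out, and the gene stayed called (edgeR adjusted p = 0.0032). Retina replicate 4 was the highest for both genes, and the groups did not overlap. LOC112562530, chosen after its values were seen because it led retina replicate 4, had 4439, 6610 and 130760 CPM in retina, against 3972, 4860 and 877 in eye stalk. There the groups overlapped, and its log2 fold change of 3.87 ± 1.21 (edgeR adjusted p = 0.019) came to 0.77 without retina replicate 4 (adjusted p = 0.31). It was called in 6 of the 12 alternatives that gave an adjusted p (0.0076 to 0.55), and was also lost in the fit of 6 libraries, under the replicate block, and without eye stalk replicate 1 or 3 (adjusted p = 0.064, 0.43, 0.052 and 0.059).

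**Figure D4:**
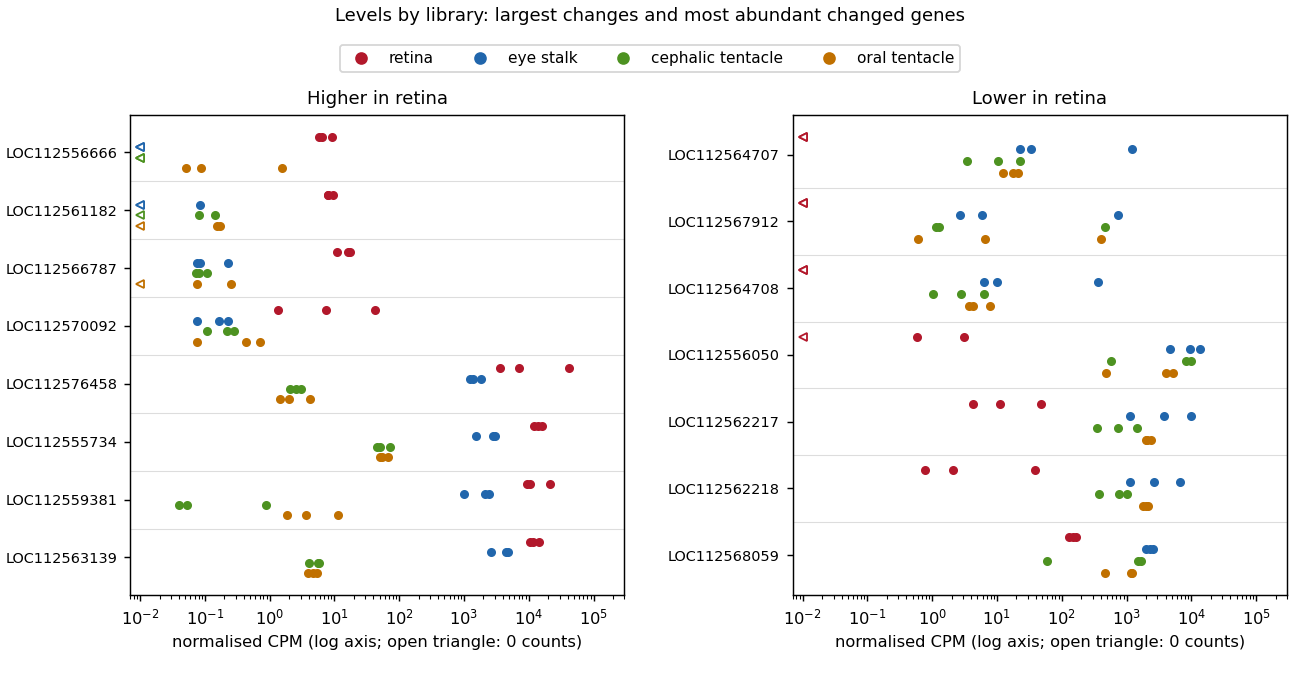
Normalised CPM (log axis) in each library for the genes with the largest changes and the most abundant changed genes, higher in retina on the left and lower on the right; each gene has 4 rows of points, retina, eye stalk, cephalic and oral tentacle from top to bottom, and open triangles stand for 0 counts. Retina points lie to the right of eye stalk points in every gene on the left and to the left in every gene on the right; in LOC112564707, LOC112567912 and LOC112564708 eye stalk replicate 3 lies far to the right of the other 2 stalks.

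Among genes higher in retina without overlap and at 5 CPM or more, the 4 largest fold differences belonged to genes averaging at most 17.1 CPM in retina. These genes were close to 0 in most other libraries. LOC112556666 had 6.40, 9.10 and 5.70 CPM in retina and 0 counts in all 3 eye stalk libraries, at least 90.2-fold higher against a floor of 3 counts over the stalks (edgeR adjusted p = 0.0052). Without eye stalk replicate 1, 2 or 3 the bound was 59.2, 61.9 or 59.4-fold, since fewer counts then stand behind the 0. It was at 0 in cephalic tentacle and 0.051, 0.086 and 1.54 CPM in oral tentacle. LOC112561182 had 9.49, 7.92 and 8.03 CPM in retina, against 1 count over the stalks. The ratio of retina to eye stalk was 325, with a 95% Poisson interval of 58.3 to 12825 (counting error only; edgeR adjusted p = 0.00030). The ratio was 213 without eye stalk replicate 1 and 214 without eye stalk replicate 3. Without eye stalk replicate 2, which held that count, it was at least 74.2-fold higher. Both genes were even between retinas and were called in all 13 alternatives.

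LOC112566787 had 11.0, 16.3 and 17.6 CPM in retina, against 0.076, 0.083 and 0.229 in eye stalk (log2 fold change 6.78 ± 0.81, edgeR adjusted p = 8.5e-05; 7.45 without eye stalk replicate 3). LOC112570092 had 1.33, 7.42 and 42.5 CPM in retina, against 0.076, 0.166 and 0.229 in eye stalk (6.71 ± 1.32, adjusted p = 0.0016; 4.74 without retina replicate 4). The first was even across retinas and the second was spread widely. LOC112559992 repeated that spread at a higher level, with 9.91, 17.8 and 287 CPM in retina, against 0.987, 1.41 and 0.841 in eye stalk (log2 fold change 6.60 ± 1.25, edgeR adjusted p = 0.0013; 3.67 without retina replicate 4). LOC112558572 had 4.19, 14.4 and 23.4 CPM in retina, against 0, 0.416 and 0.076 in eye stalk (6.39 ± 1.24, adjusted p = 0.0015). Its fold change was 5.80 without retina replicate 4, 5.81 without eye stalk replicate 1 and 8.30 without eye stalk replicate 2. All 4 genes stayed called in every alternative that gave an adjusted p, and reached at most 1.29 CPM in a tentacle library.

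A few genes higher in retina marked the other look-up classes. LOC112554343, graded downward, had 71.0 ± 26.6 CPM in retina (SD, n = 3), highest in replicate 4, against 3.87, 3.66 and 0.917 in eye stalk, and 1 count in all 6 tentacle libraries (log2 fold change 4.65 ± 0.60, edgeR adjusted p = 0.00029; 3.90 with retina replicate 4 and eye stalk replicate 3 both left out). LOC112576693 had 184, 182 and 150 CPM in retina, against 8.43, 8.40 and 12.5 in eye stalk (4.13 ± 0.59, adjusted p = 0.00024), and at most 0.724 in the tentacles. In these genes the stalk held a small but countable amount, while the tentacles were at or near 0.

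The reverse pattern, low in the stalk and near the retina level in the tentacles, was that of 240 genes, and the 2 named here were even among the retinas and among the stalks. LOC112573945 had 35.5, 38.2 and 39.9 CPM in retina, against 2.96, 3.49 and 3.98 in eye stalk (log2 fold change 3.44 ± 0.30, edgeR adjusted p = 1.7e-05), and 16.9 to 37.1 in the tentacles. LOC112560568 had 8.90, 11.9 and 13.0 CPM in retina, against 0.607, 0.499 and 0.612 in eye stalk (4.28 ± 0.48, adjusted p = 6.0e-05), and 3.60 to 9.75 in the tentacles. For these genes the eye stalk was the low tissue of the series. LOC112566738 (189 ± 62.2 CPM in retina, 19.3 ± 2.01 in eye stalk, 75.6 ± 16.0 over the 6 tentacles) and LOC112555760 (80.0 ± 28.3, 8.30 ± 3.37 and 22.9 ± 5.89 CPM) lay between, with log2 fold changes of 3.29 ± 0.25 and 3.27 ± 0.38 (edgeR adjusted p = 1.2e-05 and 7.8e-05).

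LOC112556664 and LOC112556665 had mean tentacle levels above both tissues, with 2.45 to 26.2 and 13.3 to 76.2 CPM over the 6 tentacle libraries. LOC112556664 had 11.4, 5.22 and 5.33 CPM in retina, against 0.911, 2.25 and 1.30 in eye stalk (log2 fold change 2.30 ± 0.71, edgeR adjusted p = 0.018). It was not called without retina replicate 1 (0.060), eye stalk replicate 1 (0.065) or eye stalk replicate 3 (0.055). The call was also lost with retina replicate 4 and eye stalk replicate 3 both left out (0.056). Adjusted p ranged from 0.014 to 0.065 over the edgeR alternatives, and DESeq2 gave 0.0033. LOC112556665 had 19.9, 19.8 and 11.4 CPM in retina, against 2.73, 6.57 and 2.68 in eye stalk (2.09 ± 0.60, adjusted p = 0.013; 0.051 without eye stalk replicate 1, range 0.00098 to 0.051). In the reference gene order LOC112556664 is the direct neighbour of LOC112556666, described above.

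Among genes lower in retina, the most abundant were plentiful in every appendage. LOC112556050 had 0.585, 0 and 3.07 CPM in retina, against 4617, 9405 and 13479 in eye stalk (log2 fold change -12.87 ± 1.91, edgeR adjusted p = 0.00030; -14.92 without retina replicate 4). It ranged from 476 to 9767 CPM in the tentacles. LOC112568059 had 128, 149 and 164 CPM in retina, against 2562, 2002 and 2292 in eye stalk (-3.96 ± 0.90, adjusted p = 0.0037), and 60.1 to 1663 in the tentacles. Both retina and stalk were tight for the second gene, and the uneven level lay in the tentacles.

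LOC112562217 and LOC112562218 are direct neighbours in the reference order and moved nearly in step. LOC112562217 had 11.1, 4.25 and 47.1 CPM in retina, against 1121, 3782 and 9800 in eye stalk (log2 fold change -7.88 ± 1.18, edgeR adjusted p = 0.00032). LOC112562218 had 2.08, 0.776 and 38.1 CPM in retina, against 1128, 2652 and 6676 in eye stalk (-7.99 ± 1.47, adjusted p = 0.0011). The tentacles held 351 to 2365 and 378 to 2112 CPM. In both genes retina replicate 4 was the highest retina and eye stalk replicate 3 the highest stalk. Without retina replicate 4 the changes were -9.32 and -11.25, and without eye stalk replicate 3 they were -6.88 and -7.11. If the 2 genes are near-identical copies, reads may have been split between them, which was not tested.

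Some genes of the lower set had no counts in retina at all. The 3 retinas together held 0 counts for 306 of the 3936 genes, 39 of which had at least 5 CPM in eye stalk. In the other direction 5 genes called higher had 0 counts in eye stalk, and 1 of them had at least 5 CPM in retina. Over all 16811 genes tested, 430 were at 0 counts in retina and 81 in eye stalk. Such genes passed the low-count filter only through the other tissues. The summed depth differed, so 3 counts stand for 0.031 CPM in retina and 0.078 CPM in eye stalk. The bounds of the 39 genes ran from at least 161-fold to at least 13358-fold lower, with a median of 238. The lower end of this range is set by the cut of 5 CPM and the floor of 3 counts. By look-up, 17 of the 39 had tentacle levels near the eye stalk, 15 lay between, 5 were near the retina and 2 were above both.

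Eye stalk replicate 3 was the highest stalk for 26 of these 39 genes and exceeded both others more than 4-fold for 11, which replicate 1 did for 0 and replicate 2 for 1. Without it 37 of the 39 stayed called. The 39 were chosen as called with that library included, and the share of all called genes that stayed called without it was not computed. In every alternative that gave an adjusted p, 33 of the 39 were called, as were 2929 of all 3936 lower genes. Each of the following genes had 0 counts in retina. LOC112564707 had 33.5, 22.9 and 1201 CPM in eye stalk and 3.45 to 22.5 in the tentacles, at least 13358-fold lower in retina (edgeR adjusted p = 0.0014; at least 898-fold without eye stalk replicate 3). LOC112564708, its direct neighbour, had 10.1, 6.24 and 362 CPM in eye stalk, at least 4023-fold lower in retina (adjusted p = 0.0021; at least 260-fold without eye stalk replicate 3). LOC112564836, the next gene along, had 3.64, 1.41 and 101 CPM in eye stalk, at least 1129-fold lower (adjusted p = 0.0031; at least 80.6-fold without that stalk). These 3 neighbours shared 1 profile over the stalks, with replicate 3 far above the others. Leaving out 1 retina library lowered such bounds because fewer counts stood behind the 0, to 8800 to 9058-fold for LOC112564707.

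LOC112567912 was carried by few libraries, with 2.73, 5.82 and 735 CPM in eye stalk, 473 in cephalic replicate 1, 401 in oral replicate 1 and at most 6.53 in the other tentacles. It was at least 7898-fold lower in retina (edgeR adjusted p = 0.047), or 136-fold without eye stalk replicate 3, where the call was lost (adjusted p = 0.19). Its call held in 3 of the 12 alternatives that gave an adjusted p (0.033 to 0.30), and it was also lost without any other 1 of the retina and eye stalk libraries (0.051 to 0.098), without a low-count filter (0.059), with libraries thinned to 1 depth (0.071), and with retina replicate 4 and eye stalk replicate 3 both left out (0.30). LOC112574784 had 0.304, 4.08 and 77.7 CPM in eye stalk and was at least 872-fold lower in retina (edgeR adjusted p = 0.0086). Without eye stalk replicate 3 the bound was 69.8-fold. The gene was not called with a replicate block (0.058). Its adjusted p ranged from 0.0048 to 0.058 over the edgeR alternatives that tested it, and DESeq2 gave 0.0001. In the fit of the 6 libraries alone it fell under the low-count filter and was not tested. LOC112574588 was even by contrast, with 14.6, 15.6 and 22.4 CPM in eye stalk and 1.55 to 7.65 in the tentacles, at least 559-fold lower in retina (adjusted p = 5.5e-05). LOC112558835, with 12.6, 14.4 and 99.8 CPM in eye stalk and 1.96 to 24.5 in the tentacles, was at least 1347-fold lower (adjusted p = 0.00089; 430-fold without eye stalk replicate 3).

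Other genes missing from retina were as high or higher in tentacles as in the stalk. LOC112562854 had 1.97, 1.91 and 119 CPM in eye stalk and 5.15 to 159 in the tentacles (at least 1304-fold lower in retina, edgeR adjusted p = 0.0076; 62.0-fold without eye stalk replicate 3). LOC112568028 had 1 count in retina, against 7.82, 61.2 and 131 CPM in eye stalk. Its ratio of eye stalk to retina was 6371, with a 95% Poisson interval of 1144 to 251653 (edgeR adjusted p = 0.0038). The ratio was 3302 without eye stalk replicate 3 and 4225 without retina replicate 3. Without retina replicate 4, which held that count, it was at least 1399-fold lower. LOC112565054 (3.42, 7.07 and 11.2 CPM in eye stalk, 4.61 to 86.3 in the tentacles) and LOC112572754 (1.75, 2.41 and 14.0 CPM, 0.172 to 44.2 in the tentacles) were at least 231-fold and 193-fold lower in retina (edgeR adjusted p = 0.0024 and 0.0059). Without eye stalk replicate 3 the bound of LOC112572754 was 66.3-fold. The spread between tentacle libraries was as wide as that between stalks for these genes.

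The smallest class of the lower genes, with tentacles below both tissues, was by its rule graded from eye stalk through retina to tentacle. In these 26 genes the median level was 18.8 CPM in retina, 69.4 CPM in eye stalk and 9.98 CPM in the tentacles. LOC112576707 had 65.6, 59.7 and 46.7 CPM in retina, against 187, 658 and 316 in eye stalk (log2 fold change -2.76 ± 0.43, edgeR adjusted p = 0.00041; -2.14 without eye stalk replicate 2). LOC112566881 had 16.3, 22.7 and 36.6 CPM in retina, against 162, 225 and 95.8 in eye stalk (-2.67 ± 0.47, adjusted p = 0.00079; -3.31 with retina replicate 4 and eye stalk replicate 3 both left out). Both were lower still in the tentacles, at 16.3 to 36.1 and 4.90 to 15.4 CPM. None of the 26 genes reached a fitted 32-fold difference, against 549 of the 2378 genes with tentacles near the eye stalk. The class rule largely sets this contrast. With the pseudocount of 0.5 CPM, a gene near 0 in retina cannot have tentacles clearly below both tissues. Median levels in retina were 18.8 and 1.29 CPM in the 2 classes.

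Many genes lower in retina lay side by side in the genome. Neighbours were read from the order of protein-coding genes in assembly ASM307304v1, which may not be the build behind the counts. Of 3932 genes at least 2-fold lower with a known place, 2270 (57.7%) had a direct neighbour that was also at least 2-fold lower, and 31.8% of all tested genes had such a neighbour. Of 2623 genes at least 2-fold higher, 928 (35.4%) had a neighbour of the same kind, against 25.2% of all tested genes. Runs of 3 or more held 1442 lower genes (36.7%) and 280 higher genes (10.7%). The longest run had 17 lower genes and 5 higher genes, and 13 runs of lower genes reached 10 genes or more. The lower set was also the larger, at 23.4% of genes tested against 15.6%, which alone favours more and longer runs. No expected number or length of runs was computed. These are descriptions without a test, and reads shared between near-identical neighbours could tie their counts together, which was not tested.

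The run of 17 lower genes went from LOC112557625 to LOC112557120. Summed over the run, the level was 20.5, 17.3 and 45.9 CPM in retina, against 1367, 1916 and 1026 in eye stalk and 907 to 1359 in the tentacles. Every gene of the run was called, with log2 fold changes from -7.86 to -2.75 and a median of -5.81, and none was at 0 counts in retina. By look-up 15 of the 17 had tentacle levels near the eye stalk. LOC112557617 was an exception, with 2.44 CPM in retina, 151 CPM in eye stalk and 7.52 CPM in the tentacles. The stretch did not end sharply: further on, beyond genes not called or not tested, LOC112557781 had a log2 fold change of -3.94 ± 0.96 (edgeR adjusted p = 0.0055).

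**Figure D5:**
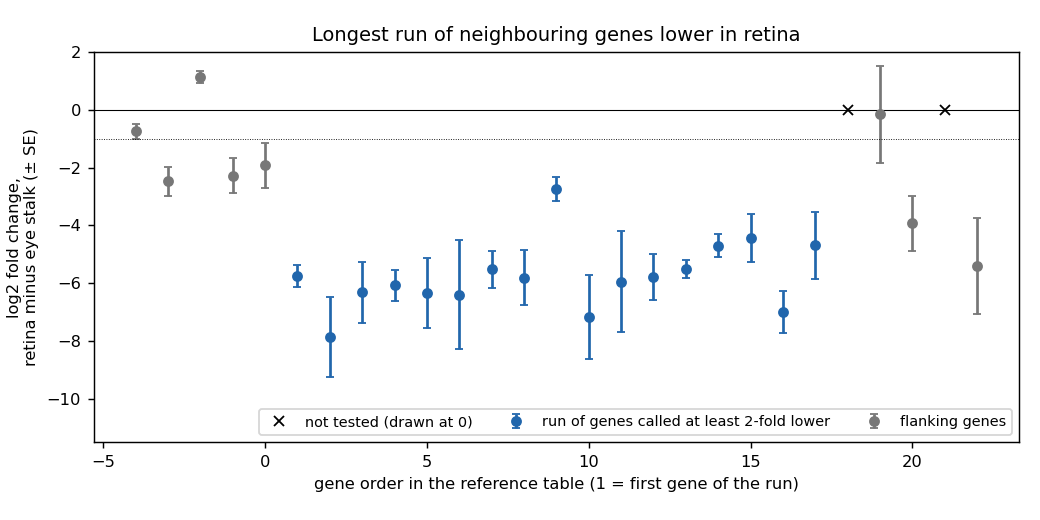
Fitted log2 fold change, retina minus eye stalk, with its SE, for the 17 genes of the longest run (blue) and 5 genes on either side (grey), in the gene order of the reference table; crosses are genes not tested. All 17 genes lie between -7.86 and -2.75, while 1 flanking gene is higher in retina.

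A second run, of 15 genes from LOC112573771 to LOC112574527, summed to 15.7, 14.8 and 26.1 CPM in retina, against 515, 601 and 644 in eye stalk. A run of 14 genes that ends with LOC112568028 and LOC112568022 summed to 1.85, 3.17 and 9.35 CPM in retina, against 112, 176 and 343 in eye stalk. In each of the 6 longest runs of lower genes most members had tentacle levels near the eye stalk. The higher genes gave no run of that length; 1 of their runs of 5 genes included LOC112559992 and summed to 374, 363 and 570 CPM in retina, against 59.4, 70.0 and 74.8 in eye stalk.

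The remaining genes were not all shown to be alike. Of the 7583 genes not called, 3238 had a 95% interval inside 2-fold in both directions. For the other 4345 the interval reached 2-fold or more, so a difference of that size was not excluded. A further 2667 genes were called with a fitted difference under 2-fold.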

How the data were processed

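The deposited file is a single table of raw counts, in whole numbers, with no scaling; its unit was read from the values. STAR is named in the submitters' processing notes. Not given in the sources used here: its version, the counter, strand setting, build and annotation. Without a known strand setting, reads of overlapping genes cannot be told apart. All 21131 identifiers matched the reference table of assembly ASM307304v1, which was used for gene order only.

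Counts of all 12 libraries entered 1 edgeR 4.0.16 fit (R 4.3.3; filterByExpr with a minimum count of 10, TMM scaling, glmQLFit and glmQLFTest, robust), with tissue as the term and 8 residual degrees of freedom; the contrast was retina minus eye stalk. Benjamini-Hochberg adjustment ran over the 16811 genes tested, and calls were made under an adjusted p of 0.05. SEs came from the F statistic. Normalised CPM used TMM-scaled library sizes, with factors of 0.71 to 0.77 in retina and 1.01 to 1.10 in eye stalk. A lower factor raises every normalised level of a library, so fold changes and counts at 2-fold depend on this scaling. Every pair of retina or eye stalk libraries differed by more than sampling noise (chi-square per degree of freedom 34.0 to 666).

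With the lower tissue at 0 and the higher at 1, look-up classes were bounded at -0.33, 0.33, 0.67 and 1.33. Named genes were called, at least 2-fold different, without overlap and at 5 CPM or more in the higher tissue, a set of 2396 higher (14.3%) and 2734 lower (16.3%) genes. In each direction the rule took the 4 largest changes, the 4 most abundant, and 2 more per look-up class. Runs count consecutive protein-coding genes at least 2-fold different in 1 direction, and an untested gene ends a run. Bounds against 0 use 3 counts over the libraries of the tissue. The question, sets and lists were chosen with earlier results of these data known. Alternatives were RLE scaling, no low-count filter, DESeq2 1.42.0 on the same genes, the 6 libraries alone, a replicate block, thinning to 10804847 counts, leaving out each library, and, added after seeing the data, leaving out retina replicate 4 and eye stalk replicate 3 together.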

Additional observations from a re-analysis of the deposited data

How the results depend on the processing

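Over the 13 alternatives, genes higher in retina numbered 3485 to 4578 and genes lower 3934 to 5256, and genes at least 2-fold higher 2158 to 2663 and at least 2-fold lower 3554 to 4456. Each count stayed within 1.5 times the reported one. The fit of the 6 libraries alone called 3485 higher and 3970 lower. RLE scaling moved the median difference over all genes tested by -0.11 (log2) and gave 4131 higher and 4846 lower, and 2175 and 4140 at 2-fold. Leaving out 1 library gave 4089 to 4578 higher and 3934 to 4770 lower. The replicate block gave 4274 higher and 4369 lower, and 2645 and 3880 at 2-fold. Retina and eye stalk share numbers 1 and 3 only, deviations from the tissue means did not follow these numbers (r = 0.0044 and -0.027 across genes), and number 4 belongs to 1 retina library, which the block takes out of the contrast; pairing was not taken as shown. Of the 2-fold sets, 2188 higher and 2929 lower genes were called in the same direction in every alternative that gave them an adjusted p, and 0 called genes were called the opposite way. With class bounds at -0.25, 0.25, 0.75 and 1.25, 659 higher and 951 lower genes lay between, by construction of the wider class; the other look-up classes stayed within 1.5 times. DESeq2 gave no adjusted p for 5 of the genes named. For named genes 440 of 462 values kept their call and 22 lost it.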
